A study of Caenorhabditis elegans with 18 samples.

Results

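In early Caenorhabditis elegans embryos, 186 windows of 1 kb had fewer small RNA reads without set-25, both in otherwise wild-type worms and in worms that also lacked nrde-3. They were selected on measured values out of 20973 windows of chromosomes I and II. Each window had a mean of at least 20 scaled reads in the wild-type strain N2, a set-25 to N2 ratio of at most 0.67, and a set-25;nrde-3 to nrde-3 ratio of at most 0.67. Of the 6393 windows that met the N2 minimum, 431 met the first ratio limit, 624 met the second and 186 met both. The ratios that chose the windows are therefore a description here, and tests are given only for met-2 and for met-2 combined with nrde-3.

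The study compared 6 strains with 3 libraries each. The mutant alleles were set-25(n5021) III, met-2(n4256) III and nrde-3(tm1116) X, each alone in 1 strain. A further strain carried set-25(n5021) together with nrde-3(tm1116) and is called the set-25 double mutant. Another carried met-2(n4256) together with nrde-3(tm1116) and is called the met-2 double mutant. The wild type was N2 (Bristol). Worms were grown for 60 to 65 h after synchronisation at the first larval stage, and total small RNA came from whole embryos that had not reached the bean stage. The RNA was treated with TAP, which trims capped and triphosphate ends so that adapters can be joined, and sequenced as reads of 50 bases. The labels speak of 2 biological replicates but number 3 libraries per strain, so the spread between libraries may be partly technical, and p-values measure only that spread. Because whole embryos were used, fewer cells of a type and less RNA per cell cannot be told apart.

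SET-25 and MET-2 methylate histone H3 at lysine 9, a mark of silent chromatin over repeats and transposons in worms. MET-2 is known for mono- and dimethylation and for supporting a large part of trimethylation, and SET-25 for trimethylation. NRDE-3 is an Argonaute protein of somatic cells that binds secondary small interfering RNAs in the cytoplasm, carries them into the nucleus and directs silencing at the matching nascent transcripts. Small RNAs of this kind are copied from target transcripts by RNA-dependent RNA polymerases.

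The libraries held 1680028 to 4384593 reads in the regions covered. The right end of chromosome I, its last 13 kb, took 20.99% to 68.8% of a library's reads, which is why levels are given as scaled reads: raw reads of a window divided by a factor from the 4986 windows with at least 10 reads in every library. In the met-2 double mutant, replicates 1 and 2 stood apart with reads in 5.76% and 7.19% of the 20-bp bins, against 11.3% to 17.9% in the other 16 libraries. Replicate 3 of nrde-3 stood apart in abundant windows, as described where it bears on a result. The mutated genes lie on chromosomes III and X, outside the regions covered, so the genotypes could not be checked from these reads. Coordinates are those of genome build ce10, and gene annotation of that build was not used here.

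The selected drops had similar medians with and without nrde-3. The median ratio over the 186 windows was 0.506 for set-25 over N2 and 0.519 for the set-25 double mutant over nrde-3, against 0.992 and 1.01 in the 6207 other windows with the N2 minimum. The lowest single ratios were 0.0992 and 0.0764, both in I:8386001-8387000. All 3 set-25 libraries lay below all 3 N2 libraries in 176 of the 186 windows, where the same held for 17.1% of all windows with the N2 minimum. All 3 set-25 double mutant libraries lay below all 3 nrde-3 libraries in 146, against a background of 14.1%, and 142 windows were separated in both contrasts. Both counts restate the selection, and nothing is read from them.

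Windows close to the limits show how gradual the selection was. Just inside the limit on set-25 over N2 were ratios of 0.669, 0.668 and 0.667, and just outside were 0.6704, 0.671 and 0.672 in windows that met the other limits. On the other ratio, the nearest values were 0.669, 0.669 and 0.668 inside and 0.672, 0.674 and 0.678 outside. The N2 means nearest the minimum were 20.01, 20.1 and 20.1 inside and 19.9, 19.5 and 19.5 outside. When each of the 12 libraries behind the choice was left out in turn, between 166 and 197 windows were chosen, and 102 of the 186 were chosen every time.

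The chosen windows were spread unevenly along the chromosomes. Chromosome I held 130, or 2.68% of its 4846 windows with the N2 minimum, and the covered portion of chromosome II held 56, or 3.62% of 1547. On chromosome I, the stretch from 12 to 15 Mb held 62 of 947 windows (6.55%), the first megabase held 12 of 297 (4.04%), and the stretch from 2 to 12 Mb held 48 of 3249 (1.48%). On chromosome II, 39 of 552 windows between 1 and 3 Mb were chosen (7.07%), against 5 of 496 between 4 and 5.9 Mb (1.01%). Unlike the first megabase of chromosome I, that of chromosome II held few, 4 of 275 (1.45%), and chromosome I beyond 15 Mb held 1 of 57 (1.75%). The highest shares were thus on chromosome I between 12 and 15 Mb and on chromosome II between 1 and 3 Mb.

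Nearly as many of the chosen windows lay side by side as lay alone. They formed 134 separate stretches, of which 97 were single windows, 30 were pairs and 7 were runs of 3 or more, so that 89 windows had a chosen neighbour. The drop extended in weaker form past the chosen windows. In the 139 adjoining windows with the N2 minimum, the median ratio was 0.809 for set-25 over N2 and 0.460 for met-2 over N2, against 0.995 and 0.989 in the 6068 windows further away. The median N2 level was 59.7 scaled reads per window in the chosen windows and 58.3 in the others, and the busiest bin held a median of 21.1% of a window's N2 reads, against 20.4%. A bin with over 50% of the N2 reads was found in 18 of the 186 windows (9.68%) and in 311 of the 6207 others (5.01%).

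**Figure D1:**
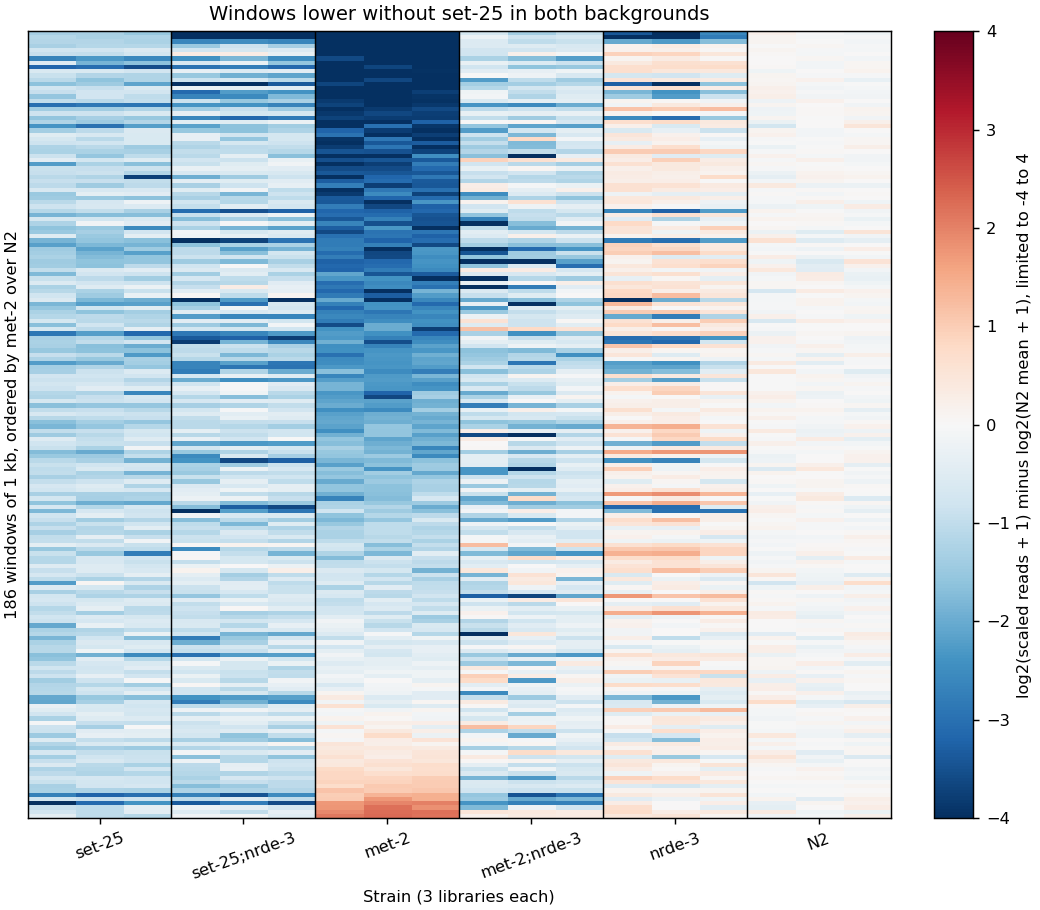
Each row is one of the 186 chosen windows and each column one library, grouped by strain. Colour shows log2(scaled reads + 1) minus the log2 of the N2 mean + 1, limited to -4 to 4, with rows ordered by met-2 over N2. The set-25 columns are mostly blue because set-25 over N2 helped to choose the rows. The met-2 columns run from deep blue to red, and the nrde-3 columns hold a minority of blue rows.

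The chosen windows behaved in more than 1 way once the strains outside the selection were examined. In met-2 most fell, while a small group rose. In the met-2 double mutant over 50% rose above their met-2 level, and many were below nrde-3. A minority also had fewer reads in nrde-3 than in N2. The individual windows are described in that order below, followed by the counts.

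The largest drop without set-25 was in I:8386001-8387000, which adjoins another chosen window, I:8385001-8386000. The window I:8386001-8387000 had 14.8, 16.4 and 11.2 scaled reads in the set-25 libraries, against 146, 131 and 149 in the N2 libraries. It had 17.5, 20.2 and 15.2 in the set-25 double mutant, against 227, 230.1 and 236 in nrde-3. Both reductions were over 10-fold with no overlap, and nrde-3 itself stood above N2. In met-2 the same window had 0.785, 10.3 and 6.41 scaled reads, below every set-25 library, and the met-2 double mutant had 81.7, 45.8 and 49.2. The log2 fold change of met-2 over N2 was -4.61 ± 0.31 (SE, adjusted p = 1.07e-12 by edgeR's quasi-likelihood test). The met-2 double mutant was higher than met-2 by 3.29 ± 0.35 (adjusted p = 9.76e-09) and lower than nrde-3, with a fold change of -2.02 ± 0.23 (adjusted p = 4.29e-07). Its neighbour I:8385001-8386000 had means of 19.9 ± 7.48 in set-25, 22.1 ± 6.64 in met-2, 41.2 ± 15.5 in the met-2 double mutant, 222 ± 32.5 in nrde-3 and 133 ± 17.5 in N2 (SD, n = 3 each). There met-2 and set-25 overlapped, unlike in the adjoining window.

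The run of 3 windows at I:6820001-6823000 showed a change of behaviour within 3 kb. Its middle window, I:6821001-6822000, had 35.2, 38.7 and 37.8 scaled reads in set-25, against 311, 293 and 265 in N2. The set-25 double mutant had 55.1, 54.7 and 44.6, against 265, 376 and 337 in nrde-3. In met-2 it had 21.2, 15.5 and 19.2, and in the met-2 double mutant 55.6, 49.1 and 72.5. All mutants of either methyltransferase were far below N2 and nrde-3, met-2 was lowest, and the met-2 double mutant lay close to the set-25 double mutant. The fold change of met-2 over N2 was -3.95 ± 0.19 (log2, SE, adjusted p = 5.42e-16, edgeR). The next window, I:6822001-6823000, had 35.2, 29.3 and 18.4 in set-25 and 103, 67.0 and 85.1 in met-2, against 94.0, 108 and 138 in N2. Here the met-2 and N2 libraries overlapped and the edgeR difference of -0.41 ± 0.21 did not pass the threshold (adjusted p = 0.122). Within this window, however, scaled reads per 100 bp changed both ways in met-2. At 2400 and 2500 bp from the run start, met-2 means were 18.3 and 24.7, against 1.16 and 2.503 in N2. The met-2 double mutant had 0 reads at both positions. At 2000 and 2900 bp, met-2 means were 0.872 and 1.95, against 18.5 and 22.2 in N2. The difference over the whole window thus sums a local rise and falls beside it. The met-2 double mutant had 40.0, 27.3 and 22.5 in this window, so it was lower than met-2, with a log2 fold change of -1.57 ± 0.25 (adjusted p = 9.95e-06), the opposite of its direction 1 kb to the left.

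The longest run covered 7 windows, I:12566020-12573019. Its N2 means ranged between 37.8 and 2105 scaled reads per window. The most abundant window, I:12569020-12570019, had 1115, 1106 and 1060.5 scaled reads in set-25, against 1937, 2251 and 2126 in N2. The set-25 double mutant had 1559, 1493 and 1541, against 2497, 2551 and 2101 in nrde-3. Both sets were tight, and each was separated from its control. The met-2 libraries had 215, 246 and 204 and the met-2 double mutant 932, 1019.9 and 906. The fold change of met-2 over N2 was -3.25 ± 0.11 (log2, SE, adjusted p = 7.55e-19, edgeR), and the met-2 double mutant was higher than met-2 by 2.10 ± 0.11 (adjusted p = 4.13e-15). Across all 7 windows, met-2 over N2 lay between 0.0468 and 0.176, and each of the 7 falls passed the threshold. The ratios of set-25 to N2 were higher, between 0.346 and 0.520.

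Other runs differed from this one in degree or in the order of the strains. In the run of 4 windows at II:1987017-1991016, II:1990017-1991016 had 36.3, 47.3 and 45.9 scaled reads in set-25 and 23.5, 24.9 and 12.8 in met-2, against 161, 175 and 169 in N2. The set-25 double mutant had 53.8, 69.9 and 69.6 and the met-2 double mutant 64.3, 52.4 and 52.7, against 322, 270.1 and 217 in nrde-3. In this window all 3 nrde-3 libraries exceeded all N2 libraries, whereas nrde-3 and N2 overlapped in I:12569020-12570019. In the run of 4 at I:9380001-9384000 levels were low: I:9382001-9383000 had 23.8, 21.5 and 14.3 in set-25, 14.1, 25.8 and 17.4 in met-2 and 31.1, 41.9 and 33.0 in N2. Its fold change of met-2 over N2 was -0.89 ± 0.31 (log2, SE, adjusted p = 0.0227, edgeR), and the other 3 windows of the run also fell in met-2. In the run of 5 at I:13990020-13995019 the windows did not move together in met-2. The windows I:13990020-13991019, I:13993020-13994019 and I:13994020-13995019 fell to 10.5, 12.4 and 5.14 scaled reads in met-2, against 59.9, 124 and 114 in N2. The most abundant window of that run, I:13991020-13992019, had 199, 229 and 228 in met-2, against 226, 269 and 282 in N2, a difference of -0.25 ± 0.12 that did not pass the threshold (adjusted p = 0.126, edgeR).

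**Figure D2:**
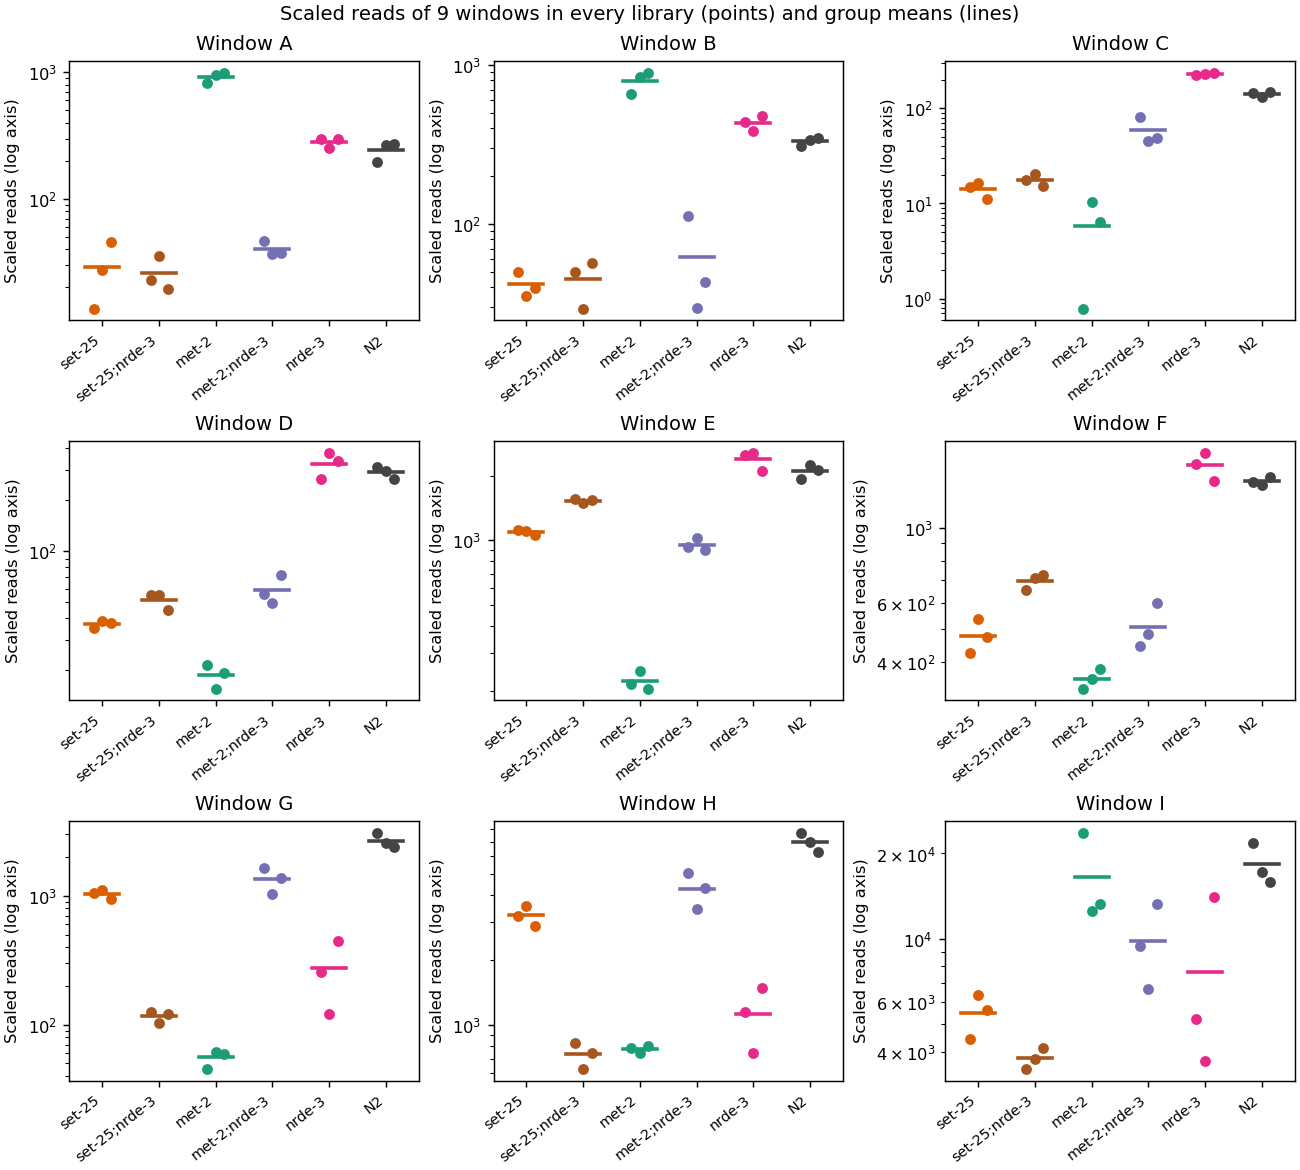
Scaled reads per 1-kb window on log axes in all 18 libraries (points) with group means (lines), strains ordered set-25, set-25 double mutant, met-2, met-2 double mutant, nrde-3 and N2. Windows A and B are the pair at I:12506020, C is I:8386001-8387000, D is I:6821001-6822000, E is I:12569020-12570019, F is II:4057017-4058016, G is II:311017-312016, H is II:2136017-2137016 and I is I:6172001-6173000. In A and B met-2 lies above N2 while the met-2 double mutant lies with the set-25 strains. In C to F met-2 is lowest. In G and H nrde-3 is also far below N2, and in panel I a single nrde-3 library stands apart from the other 2.

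The window II:4057017-4058016, at the right side of the covered portion of chromosome II, belonged to the same kind. It had 427, 538 and 474 scaled reads in set-25, against 1366, 1341 and 1421 in N2, and 656, 712 and 726 in the set-25 double mutant, against 1547, 1672 and 1384 in nrde-3. The met-2 libraries had 333, 357 and 382 and the met-2 double mutant 447, 484 and 599. Here met-2 lay below set-25 without overlap, and the met-2 double mutant overlapped with set-25. The fold change of met-2 over N2 was -1.95 ± 0.12 (log2, SE, adjusted p = 8.80e-14, edgeR), and the met-2 double mutant exceeded met-2 by 0.52 ± 0.12 (adjusted p = 7.16e-04).

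At a few places small RNA reads went down without set-25 but up without met-2. The largest fall of the met-2 double mutant relative to met-2 was in one of them, the pair I:12506020-12507019 and I:12507020-12508019. The first had 13.6, 27.5 and 45.9 scaled reads in set-25 and 823, 953 and 990.5 in met-2, against 197, 266 and 274 in N2. It had 22.8, 35.4 and 19.6 in the set-25 double mutant and 47.0, 37.1 and 37.1 in the met-2 double mutant, against 299, 251 and 296 in nrde-3. All met-2 libraries were far above N2 and nrde-3, and the met-2 double mutant overlapped with set-25. The rise in met-2 was 1.90 ± 0.17 (log2, SE, adjusted p = 3.78e-10, edgeR). The met-2 double mutant was lower than met-2, with a log2 fold change of -4.54 ± 0.22 (adjusted p = 6.91e-16), and lower than nrde-3, with -2.83 ± 0.22 (adjusted p = 5.59e-10). In the second window the met-2 libraries had 653, 846 and 893, against 309.7, 336 and 347 in N2, and the met-2 double mutant had 113, 29.5 and 43.2. A larger rise in met-2 lay outside the chosen windows, in the left flank of the pair. At -1900 and -1200 bp from the start of the pair, met-2 had 1061 and 1192 scaled reads per 100 bp. The means there were 26.7 and 64.8 in N2, and 18.9 and 42.3 in set-25. In both windows of the pair met-2 was highest, and the other methyltransferase mutants lay below N2 and nrde-3.

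A run of 3 windows 6 kb to the left, I:12497020-12500019, shared this pattern at higher levels. Its most abundant window, I:12499020-12500019, had 448, 474 and 435 scaled reads in set-25 and 1579, 1607 and 1533 in met-2, against 1146, 1191 and 1255 in N2. The met-2 double mutant had 466, 544 and 705, against 1289, 1341 and 1482 in nrde-3. The rise in met-2 was small, 0.39 ± 0.11 on the log2 scale (SE, adjusted p = 0.00630, edgeR), and scaled by library totals alone it became a difference of -0.0146. The other windows of the run rose in met-2 to 1360.0 and 463 scaled reads, against 644 and 276 in N2. All 3 windows fell in the met-2 double mutant relative to met-2, with ratios of 0.265 to 0.371.

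The largest rises in met-2 over N2 were in the adjoining windows I:13930020-13931019 and I:13931020-13932019. The first had 152, 187 and 185 scaled reads in met-2, against 50.4, 35.1 and 32.4 in N2, and the second had 279, 308 and 293 in met-2, against 57.9, 60.0 and 73.3 in N2. In the second, the met-2 double mutant had 71.3, 81.8 and 80.3, against 87.4, 90.7 and 69.0 in nrde-3. The groups did not overlap between met-2 and N2, but the met-2 double mutant and nrde-3 overlapped in both windows. The rises were 2.17 ± 0.20 and 2.20 ± 0.17 (log2, SE, adjusted p = 5.07e-10 and 9.32e-12, edgeR). The same direction was seen at II:3942017-3943016, with 70.6, 96.3 and 75.1 scaled reads in met-2, against 15.1, 20.4 and 25.1 in N2. At I:7848001-7849000 there were 42.4, 71.3 and 56.8 in met-2, against 22.7, 14.7 and 24.4 in N2. At I:4495001-4496000 there were 206, 211 and 227 in met-2, against 121, 123 and 102 in N2. In these 3 windows too the met-2 double mutant fell below met-2, with fold changes of -2.75 ± 0.35, -3.39 ± 0.38 and -2.51 ± 0.23 on the log2 scale (SE, adjusted p = 1.90e-07, 2.34e-08 and 6.94e-10, edgeR). The window I:7848001-7849000 was a borderline choice that 6 of the 12 omissions of a library removed from the set. At II:3942017-3943016 the set-25 libraries overlapped with N2, and the set-25 double mutant overlapped with nrde-3. The drop without set-25 was thus not clear between libraries there, and that window stayed chosen in 9 of the 12 omissions.

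**Figure D3:**
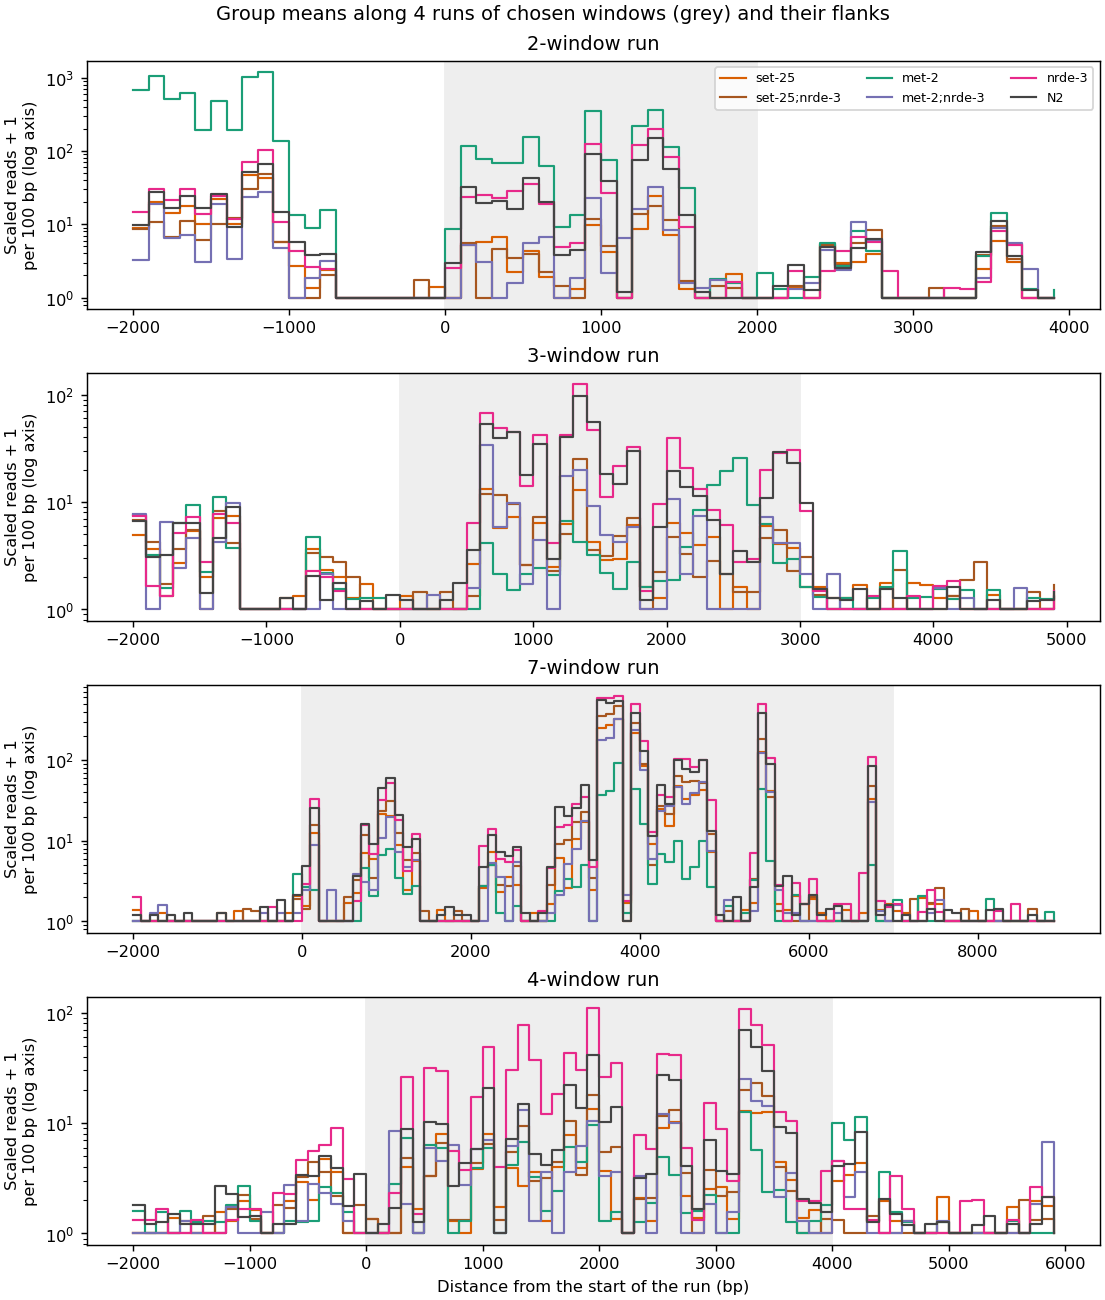
Mean scaled reads + 1 per 100 bp on a log axis, for 6 strains, against the distance in bp from the start of 4 runs of chosen windows (grey) and their flanks. In the 2-window run at I:12506020 the met-2 line lies above N2 over most of the run. The lines of the other methyltransferase mutants mostly lie below N2, with exceptions in steps that have few reads. Within the grey area met-2 has the lowest mean, ties included, in 60 of 70 steps of the 7-window run at I:12566020. It does so in 17 of 30 steps of the 3-window run at I:6820001 and in 19 of 40 steps of the 4-window run at II:1987017. Without ties these counts are 31, 12 and 12.

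In a minority of the chosen windows reads were also lost without nrde-3. A nrde-3 to N2 ratio of at most 0.5 was found in 22 of the 186 windows, 15 of them on chromosome II, and in 122 of the 6393 windows with the N2 minimum (1.91%). The median nrde-3 to N2 ratio of the other 164 windows was 1.18. Over all 186 windows, the nrde-3 libraries lay wholly below N2 in 28, against a background of 12.7%, and wholly above in 63, against 13.4%. The set-25 double mutant lay wholly below set-25 in 26, against 13.3%, and wholly above in 43, against 17.2%. Since nrde-3, N2, set-25 and the set-25 double mutant all entered the selection, these are descriptions.

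The 22 windows were abundant ones, with a median N2 level of 537 scaled reads against 55.5 in the other 164. Their median ratio to N2 was 0.432 in set-25, 0.162 in met-2, 0.588 in the met-2 double mutant and 0.259 in nrde-3. Over all 122 windows with such a nrde-3 ratio, the 22 included, the medians were 0.612 in set-25, 0.209 in met-2, 0.723 in the met-2 double mutant and 0.345 in nrde-3, so a low met-2 level was also found over nrde-3-low windows in general. For example, II:311017-312016 had 1057, 1102 and 942 scaled reads in set-25, against 3069.9, 2584 and 2385 in N2, and 125, 102 and 122 in the set-25 double mutant, against 256, 122 and 446 in nrde-3. It had 45.5, 61.9 and 59.5 in met-2 and 1638, 1039.5 and 1365 in the met-2 double mutant. The set-25 double mutant and nrde-3 overlapped, and the spread within nrde-3 came mostly from replicate 3. The fold change of met-2 over N2 was -5.59 ± 0.29 (log2, SE, adjusted p = 4.13e-15, edgeR). The met-2 double mutant was higher than met-2 by 4.60 ± 0.29 (adjusted p = 1.67e-13) and higher than nrde-3 by 2.29 ± 0.25 (adjusted p = 1.47e-07).

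The same order, with N2 highest, the met-2 double mutant and set-25 next and both nrde-3 and met-2 low, was found in further abundant windows among the 22. In II:2136017-2137016 the set-25 libraries had 3198, 3554 and 2874 scaled reads, met-2 782, 747 and 802, the met-2 double mutant 5010.2, 3449 and 4267, nrde-3 1149.9, 745 and 1483 and N2 7698, 7008 and 6321. In I:13409020-13410019 the met-2 libraries had 115, 149 and 106 and the met-2 double mutant 2913, 2098 and 2291, against 1025, 880.4 and 1285 in nrde-3 and 4579, 4144 and 3938 in N2. The group means in II:2094017-2095016 were 6336 ± 375 in set-25, 2283 ± 48.7 in met-2, 9989 ± 1727 in the met-2 double mutant, 3806 ± 1961 in nrde-3 and 13858 ± 1863 in N2 (SD, n = 3 each). In these windows the means of the met-2 double mutant lay above those of nrde-3, while those of the set-25 double mutant lay below, as the choice required.

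In the adjoining windows II:2996017-2997016 and II:2997017-2998016 a large part of the reads fell in 1 bin of 20 bp, 80.5% and 95.4% of the N2 reads. The first had 25.9, 38.7 and 28.4 scaled reads in met-2 and 1043, 693 and 749 in the met-2 double mutant, against 75.6, 50.7 and 175 in nrde-3. The second had 727, 675 and 673 in met-2 and 4737, 3508 and 5089 in the met-2 double mutant, against 1594, 1148 and 3253 in nrde-3. In both windows the met-2 double mutant lay above all libraries of the other mutants named. The first held the largest rise of the met-2 double mutant over nrde-3 in the set, 3.02 ± 0.25 (log2, SE, adjusted p = 9.80e-10, edgeR). The window II:3597017-3598016 had 1129, 1174 and 1347 in the met-2 double mutant, against 674, 380.2 and 941 in nrde-3, a rise of 0.87 ± 0.18 (adjusted p = 0.00210). At the low end, the run of 3 at II:3314017-3317016 held II:3315017-3316016, with 20.9, 27.3 and 20.7 in the met-2 double mutant, against 5.93, 1.95 and 2.0 in nrde-3, a rise of 2.88 ± 0.58 (adjusted p = 0.00140). Summed over libraries, that window had only 8 raw reads in nrde-3 and 6 in the set-25 double mutant. These strains overlapped there, so its choice and the size of its rise rest on few reads. The adjoining window II:3314017-3315016 had 17.8, 19.5 and 119.9 in nrde-3, 1 library far above the other 2, and the rise there did not pass the threshold.

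Membership of these 22 windows rested largely on 1 library. All 22 had set-25 wholly below N2, but the set-25 double mutant was wholly below nrde-3 in only 3 of them, against 143 of the other 164. Without nrde-3 replicate 3, 5 of the 22 were still chosen, against 153 of the 164. The set-25 double mutant was wholly below set-25 in 20 of the 22 and in 6 of the 164, and nrde-3 was wholly below N2 in 21 of the 22. In most of the 22 windows, then, the drop in set-25 relative to N2 was clear between libraries and the drop in the set-25 double mutant relative to nrde-3 was not.

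The window with the most reads, I:6172001-6173000, also belonged to the 22 but differed from them in met-2. A single bin of 20 bp held 99.8% of its N2 reads. It had 4426, 6349 and 5587 scaled reads in set-25, against 21798, 17245 and 15881 in N2, and 3482, 3770.0 and 4103 in the set-25 double mutant, against 5199.6, 3721 and 14026 in nrde-3. It had 23622, 12577 and 13239.5 in met-2 and 9445, 6651 and 13312 in the met-2 double mutant. Replicate 3 of nrde-3 was far above the other 2, and met-2 overlapped with N2. Neither the met-2 difference of -0.15 ± 0.31 (adjusted p = 0.749) nor that of the met-2 double mutant from nrde-3, 0.36 ± 0.31 (log2, SE, adjusted p = 0.549), passed the threshold in edgeR, whereas the other 21 of the 22 windows fell in met-2. In I:1738001-1739000, which was not among the 22 and had 99.9% of its N2 reads in 1 bin, the set-25 libraries had 9302, 6868 and 6456, met-2 12799, 16065 and 19293, nrde-3 7624, 4098 and 15921 and N2 12564, 13425 and 13679. Without nrde-3 replicate 3 neither window was chosen. Of the 18 windows with over 50% of N2 reads in 1 bin, 9 fell and 1 rose in met-2. Of the 311 other windows of that shape, 96 fell (30.9%) and 47 rose (15.1%).

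Most of the chosen windows fell in met-2. The median ratio of met-2 to N2 was 0.249, with 0.102 and 0.606 at the quartiles, against 0.982 in the 6207 others. By edgeR's quasi-likelihood test, 138 of the 186 windows fell in met-2, where 25.3% of all 10127 windows tested and 29.8% of those with the N2 minimum did so. Of the 138, 125 fell at least 2-fold. Another 14 rose, against backgrounds of 12.7% and 15.1%, and 7 of these rose at least 2-fold. The share that fell was therefore well above the background, and the share that rose was below it. The median log2 fold change was -2.01 in the chosen windows and -0.05 over all windows tested. Counted by stretch, 96 of the 134 held only falls, 9 only rises, 1 both and 28 neither. This comparison shares the N2 libraries with the selection, and windows chosen for a high N2 level relative to set-25 tend to have N2 values on the high side. It is not an independent test for that reason.

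The deepest falls in met-2 left almost no reads. In I:5311001-5312000 the met-2 libraries had 0 reads, the met-2 double mutant libraries 17.4, 14.2 and 11.2 scaled reads and the N2 libraries 21.8, 19.8 and 22.5. Counting 3 reads over the group as the floor, met-2 was at least 25-fold lower than N2, and the met-2 double mutant at least 16-fold higher than met-2. In I:14932020-14933019 the met-2 libraries had 0, 0 and 0.915 scaled reads, which was 1 read in all, while the met-2 double mutant had 17.4, 36.0 and 29.4 and N2 had 31.9, 29.4 and 31.7. Taken as N2 over met-2, the ratio was 109, with an exact 95% counting interval of 19.2 to 4334, and the ratio of the met-2 double mutant to met-2 was 103, with an interval of 17.9 to 4104. Both intervals cover counting error only. In both windows every library of the other strains had reads.

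The comparison of the met-2 double mutant with met-2 uses no library that chose the windows. In most of the windows nrde-3 loss on top of met-2 loss went with more reads, not fewer. The median ratio was 2.24 over the 185 windows with reads in met-2, against 1.00 in the others. By edgeR, 105 of the 186 windows rose, against 26.9% of all windows tested and 30.6% of those with the N2 minimum, and 95 of them at least 2-fold. In the opposite direction 19 fell, against 16.4% and 20.1%, and 17 of them at least 2-fold. The median log2 fold change was 1.15 in the chosen windows and 0.05 over all windows tested. By stretch, 79 of 134 held only rises, 14 only falls, 1 both and 40 neither. Leaving out replicates 1 and 2 of the met-2 double mutant leaves 1 library without a spread of its own, so only levels are given. The median log2 difference from the N2 mean was -0.584 in replicate 3, and -0.765 and -0.770 in replicates 1 and 2. It was -1.99, -1.95 and -1.91 in the met-2 libraries. These differences involve N2, which entered the choice.

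The direction of this difference went with the direction in met-2. In the 142 windows with a met-2 to N2 ratio of at most 0.67, the median ratio of the met-2 double mutant to met-2 was 3.19, and in the 13 windows with a met-2 to N2 ratio of at least 1.5 it was 0.266. Both ratios contain the met-2 libraries, so part of that opposition is built in. Relative to N2, the met-2 double mutant was at 0.603 in the 142 windows and at 0.600 in the 13. Relative to set-25, it was at 1.31 and 1.34. In the 31 windows between these limits it was at 0.815 relative to N2 and at 1.498 relative to set-25. The 2 classes that went opposite ways in met-2 alone thus had similar medians in the met-2 double mutant, and the class between them was higher. The window I:12932020-12933019 shows the rising kind: it had 1.57, 1.72 and 1.83 scaled reads in met-2 and 53.9, 44.7 and 37.1 in the met-2 double mutant, against 34.1, 55.6 and 35.0 in nrde-3 and 26.9, 32.3 and 25.1 in N2. The rise over met-2 was 4.62 ± 0.43 (log2, SE, adjusted p = 5.77e-10, edgeR).

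**Figure D4:**
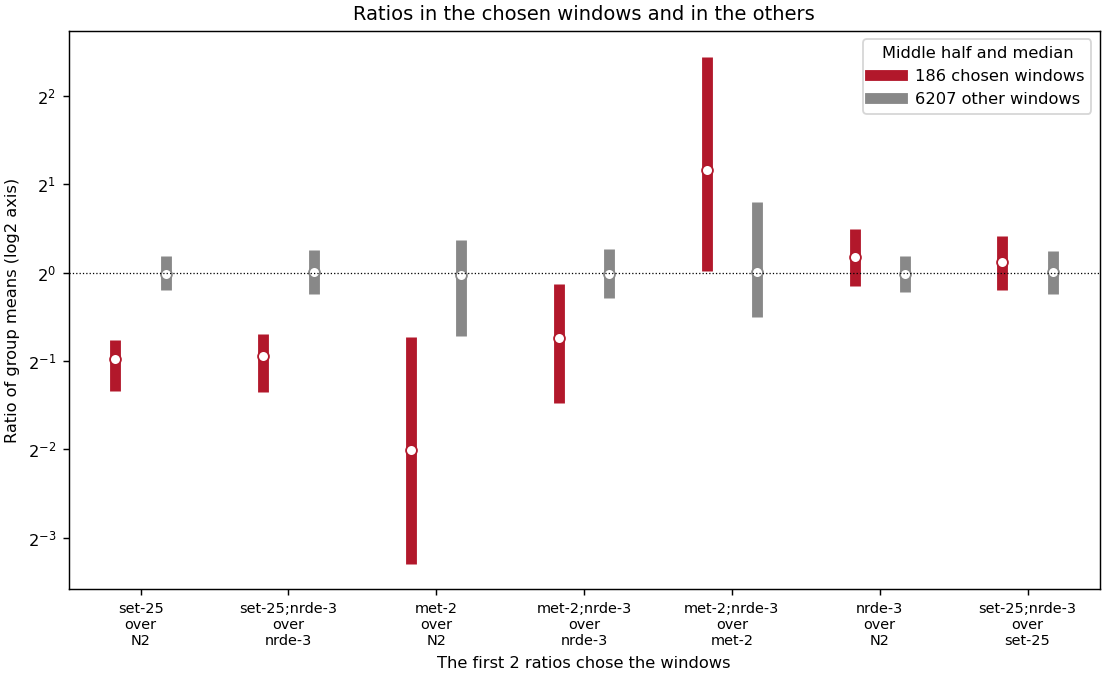
Medians (circles) and the middle 50% (bars) of 7 ratios of group means, on a log2 axis, in the 186 chosen windows (red) and the 6207 other windows with the N2 minimum (grey). The first 2 ratios chose the windows. The chosen windows have a median of 0.249 for met-2 over N2, 0.600 for the met-2 double mutant over nrde-3 and 2.24 for the met-2 double mutant over met-2, while all grey medians lie close to 1.

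Relative to nrde-3, the met-2 double mutant was lower in many of the chosen windows, by less than met-2 relative to N2. The median ratio was 0.600, against 0.987 in the others. By edgeR, 85 windows fell, against 4.34% of all windows tested and 5.76% of those with the N2 minimum, and 67 of them fell at least 2-fold. Another 14 rose, against 4.33% and 5.77%, and 12 of them at least 2-fold. The median log2 fold change was -0.70, against -0.01 over all windows tested. This comparison shares the nrde-3 libraries with the selection. All 14 rises were among the 22 windows with a nrde-3 to N2 ratio of at most 0.5, a group defined with the same nrde-3 libraries, and none of the 22 fell. Among the 100 other windows with the N2 minimum and a nrde-3 to N2 ratio of at most 0.5, 61 rose and none fell, so such rises were also found outside the chosen windows. With the windows chosen without nrde-3 replicate 3, 4 of 166 rose (2.41%), below the 4.33% of all windows tested, and 83 fell.

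The deepest falls relative to nrde-3 were in windows with few reads. The window II:1966017-1967016 had 1.74, 1.09 and 5.18 scaled reads in the met-2 double mutant, against 85.9, 57.5 and 63.0 in nrde-3, and 24.3, 22.1 and 29.7 in N2. The window I:5312001-5313000 had 0, 0 and 4.32 in the met-2 double mutant, against 25.2, 35.1 and 37.0 in nrde-3. The window I:9380001-9381000 had 0, 2.18 and 4.32 in the met-2 double mutant, against 48.9, 47.8 and 35.0 in nrde-3. The groups were far apart in all 3, with log2 fold changes of -4.47 ± 0.44, -4.08 ± 0.63 and -4.02 ± 0.58 (SE, adjusted p = 3.44e-08, 4.92e-05 and 1.90e-05, edgeR). Summed over libraries, the met-2 double mutant had only 8, 5 and 7 raw reads, so the sizes of these falls rest on few reads. Most of those reads came from replicate 3, and replicates 1 and 2 are the libraries with reads in the fewest bins. Reads were also few in set-25 in these windows, with means of 11.8, 7.33 and 7.81 against 25.4, 23.1 and 26.2 in N2.

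Over the chosen windows, the libraries labelled met-2;nrde-3 were most often nearest in level to a set-25 strain, whose low levels were part of the choice. The group mean nearest to theirs on the log2 scale was set-25 in 66 of the 186 windows, the set-25 double mutant in 44, met-2 in 20, nrde-3 in 17 and N2 in 39. Over all 6393 windows with the N2 minimum, the same counts were 1591, 1294, 631, 1334 and 1543. Levels in the met-2 double mutant correlated across the 186 windows with Spearman's rho of 0.887 for set-25, 0.846 for the set-25 double mutant, 0.648 for met-2, 0.782 for nrde-3 and 0.866 for N2, as medians over pairs of libraries. Over all 6393 windows the values were 0.878, 0.861, 0.635, 0.852 and 0.875 in the same order. The value for nrde-3 was thus lower over the chosen windows, and the others were close. These are correlations across windows, which share libraries and depth. Any part of the labelled genotype in this was not tested. The difference in the effect of met-2 loss with and without nrde-3 was tested as an interaction in edgeR. It passed the threshold above 0 in 91 windows and below 0 in 23, against 21.0% and 10.2% of all windows tested.

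As a share of the reads in the regions covered, the 186 windows held 1.32% ± 0.159 in set-25, 0.817% ± 0.136 in the set-25 double mutant, 1.84% ± 0.160 in met-2, 2.76% ± 0.564 in the met-2 double mutant, 2.39% ± 0.904 in nrde-3 and 4.49% ± 0.645 in N2 (SD, n = 3 each). The share moves with the share taken by the right end of chromosome I. That end held 52.8% to 60.5% of the reads in set-25 libraries and 22.8% to 32.8% in N2 libraries. Its part in these shares was not tested. With that end left out of the factors and the windows, the same 186 windows were chosen.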

How the data were processed

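The authors deposited one table of raw read counts per 20-bp bin for all 18 libraries, covering chromosome I and chromosome II to 5.9 Mb (build ce10, per the submitters' processing notes). Per the labels, reads were clipped and collapsed with the FASTX-Toolkit and mapped with QuasR to WS220, with versions not given in the sources used here. A normalisation to library totals and a split by read length, also mentioned there, are not visible in the whole-number values. The table was therefore analysed as unscaled counts with both strands together.

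Bins were summed into 1-kb windows and divided by median-of-ratios factors. edgeR 4.0.16 (R 4.3.3) was fitted to all 18 libraries with a coefficient per strain, those factors as offsets and a filterByExpr minimum count of 10. Its quasi-likelihood test used Benjamini-Hochberg adjustment at 0.05 over the 10127 windows tested, all 186 chosen windows among them, and was checked on simulated data. Standard errors were computed as the absolute log2 fold change over the root of F. DESeq2 1.42.0, other scalings, filters, grids and omissions of libraries were alternatives. Windows are called separated when no library of one strain reaches the range of the other.

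The 34 named windows are the most abundant window of each run of 3 or more, the 6 with the most N2 reads overall and on chromosome II, the 5 lowest in each ratio of the choice, and the largest separated changes past the threshold: 5 rises and 5 falls of the met-2 double mutant against met-2, and 3 of each against nrde-3 and of met-2 against N2. Other windows of their runs are given by means. The windows, the rule and the comparisons were chosen with earlier results of these data known. No sequences are printed, since no genome of build ce10 was used here. Precision is limited by the reads per window, and intervals cover counting error only.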

Additional observations from a re-analysis of the deposited data

Results flagged for a closer look

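The effect of losing met-2 differed between worms without and with nrde-3 in many of the chosen windows, by an interaction test in edgeR adjusted over all 10127 windows tested. The effect on the log2 scale was higher without nrde-3 in 91 windows (48.9%) and lower in 23 (12.4%). Over all windows tested the shares were 21.0% and 10.2%, so the share with a lower effect was close to the background. Among the named windows, it was higher by 8.32 at II:2996017-2997016, by 7.88 at II:311017-312016 and by 4.18 at II:3315017-3316016, all of which had few nrde-3 reads relative to N2. The interaction was -3.60 at II:1966017-1967016, where the met-2 double mutant was nearly empty, with 8 raw reads in all. It was -2.86 at II:3942017-3943016, -2.24 at I:13930020-13931019 and -2.26 at I:13931020-13932019, where met-2 rose over N2. The interaction uses the N2 and nrde-3 libraries that entered the choice of the windows. The first 2 values also rest on nrde-3 levels in which replicate 3 stood apart. The value at II:3315017-3316016 rests on 8 raw nrde-3 reads in all.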

How the results depend on the processing

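The number of chosen windows was 1973 when libraries were scaled by their totals alone, 120 with 2-kb windows, 64 with both ratios at most 0.5 and 107 with an N2 minimum of 50. It was 164 on a grid moved by 500 bp and 193 with TMM factors. With 1 library left out, it ranged from 166 to 197.

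With a minimum count of 100, 84 of the 186 windows were tested. Of these, 66 (78.6%) fell in met-2, 57 (67.9%) rose in the met-2 double mutant relative to met-2, and 55 (65.5%) fell relative to nrde-3. The shares of all 2614 windows tested at that minimum were 42.0%, 43.2% and 12.7%. Scaled by totals alone, 8 rose in met-2, and the median log2 difference over all windows tested moved by -0.41 for met-2 against N2, by 0.36 for the met-2 double mutant against met-2 and by 0.23 against nrde-3. Of 10730 windows tested, that scaling gave 3423 falls and 488 rises in met-2, where the scaling used here gave 2565 and 1283 of 10127. For the met-2 double mutant against met-2 it gave 628 falls and 3408 rises, where the scaling used here gave 1661 and 2721. Against nrde-3 it gave 129 falls and 482 rises, where the scaling used here gave 440 and 439. In the same scaling I:12499020-12500019 turned to -0.0146 for met-2 over N2, and the cause was not tested. With 1 library left out, the counts ranged from 130 to 133 falls and 12 to 14 rises in met-2, from 96 to 108 rises and 18 to 21 falls of the met-2 double mutant against met-2, and from 73 to 92 falls and 11 to 20 rises against nrde-3. In an alternative added after seeing the data, with the windows chosen without nrde-3 replicate 3, 4 of 166 rose relative to nrde-3. DESeq2 gave 137 falls and 14 rises in met-2, against 2570 and 1248 over all 10127 windows tested.

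With the replicate number as a block, the counts were 138 and 14 for met-2, 101 rises and 20 falls against met-2, and 85 falls and 14 rises against nrde-3. Over all 10127 windows tested, that fit gave 2529 falls and 1239 rises for met-2. It gave 2642 rises and 1637 falls against met-2, and 419 falls and 417 rises against nrde-3. Deviations of same-numbered libraries correlated between -0.12 and 0.14, and those of other pairs between -0.14 and 0.14. No pairing by number was visible in these values, which cannot exclude a shared preparation of same-numbered libraries. Of the values of named windows under alternatives, 1130 kept their direction and side of the threshold, 32 no longer passed it, and 1 changed sign. Depth limits the windows with few reads, such as I:5311001-5312000.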
